A study of Homo sapiens with 4 samples.

Results

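The type II melanoma antigen (MAGE) genes were examined on expression arrays of HCT116 cells, a colorectal carcinoma line, with and without knockdown of plakophilin3 (PKP3), a plaque protein of the desmosome. The members were 9 genes of the family, MAGED1, MAGED2, MAGED4, TRO, MAGEH1, MAGEE1, NDN, MAGEL2 and NDNL2, taken by the gene name that the array gives to a probe. They are 9 of the 30986 gene names on the array and were read by 15 of the 50117 probes that had a value on all 4 arrays. MAGED2 was chosen by its log2 difference between the clones on these same arrays, so its values are given as a description without a test. The other 8 genes entered by their family name, and those bright enough to be measured were tested.

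The vector control (vec) was an HCT116 clone carrying the vector alone, and shpkp3-2 was an HCT116 clone stably transfected with a plasmid that encodes a short hairpin RNA against PKP3. Per the labels both were kept in 5 µg/ml puromycin. Each group was 1 clone, so a difference between the clones cannot be told apart from a difference that the knockdown brings about. RNA was collected from both clones on 2 occasions, giving the pairs vec 1 with shpkp3-2 1 and vec 2 with shpkp3-2 2. Each of the 4 RNA samples was labelled with Cy3 and hybridised to 1 array of a single slide, on which the arrays of each clone lay side by side, so that clone and place on the slide cannot be told apart. The p-values below therefore measure the spread between arrays of single clones. The scanner software flags probes that lie well above background, and a probe was taken as measured where 1 clone or both had this flag on each of its arrays, which 30520 probes met. Levels are log2 signals relative to the 75th percentile of the array, a difference is the mean of shpkp3-2 minus that of vec, and a probe was called at a limma p of under 0.05 after Benjamini-Hochberg adjustment over the 30520 probes.

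The share of spots well above background was 60.5% to 63.5% and no spot was saturated. The PKP3 probe read 20850 and 22840 intensity units in vec and 3414 and 3078 in shpkp3-2, a log2 difference of -2.54 (SE 0.23, limma adjusted p = 0.0188). All 6 epithelial markers examined (EPCAM, KRT8, KRT18, KRT19, CDH1 and CLDN4) were well above background on all 4 arrays. None of the 6 was called by limma, against 0.396% of all probes tested. All 6 were higher in shpkp3-2, with a median difference of 0.36 beside 0.05 over all probes tested. Without vec 1, KRT18 went from 0.04 to -0.13 and EPCAM from 0.23 to 0.08, and the other markers stayed higher. CLDN4 alone had an unadjusted p under 0.05, as had 12.3% of all probes (difference 0.96, SE 0.22, limma adjusted p = 0.196). The part of these 6 markers in the results below was not tested. Of 5 markers of other cells, the leukocyte gene PTPRC and the fibroblast genes COL1A2 and PDGFRB had the flag on no array. COL1A1 and PECAM1 had it on all 4. COL1A1 read 100 to 178 units. PECAM1 read 10.9 to 16.9 units, near the dimmest flagged probes of the arrays at 8.41 to 9.74.

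MAGE proteins share a conserved fold, the MAGE homology domain, through which several of them bind and modulate E3 ubiquitin ligases of the RING type. The type I genes (MAGEA, MAGEB and MAGEC) lie on the X chromosome and are mostly silent outside the germline and tumors, whereas the type II genes are expressed in many normal tissues. MAGED2 is best known for its part in salt handling by the fetal kidney, and inherited loss of it causes a transient antenatal form of Bartter syndrome. Of the 9 members, 6 lie on the X chromosome and 3 (NDN, MAGEL2 and NDNL2) on chromosome 15, where NDN and MAGEL2 belong to the imprinted Prader-Willi region.

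The members are related in sequence, so the 60-base probes of MAGED2 were set against those of its relatives. They are printed 5′ to 3′ because the MAGED2 result rests on them, and capitals mark the bases that match at the best alignment without gaps. The first pair, MAGED2 probe 1 and a MAGED1 probe, matched at 28 of 54 overlapping bases. At any offset, the longest run that these probes shared was 6 bases. MAGED2 probe 1 shared a longer run, of 8 bases, with the MAGED4 probe printed below.

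MAGED2 probe 1: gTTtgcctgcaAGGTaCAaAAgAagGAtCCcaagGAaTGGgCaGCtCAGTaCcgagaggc

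MAGED1 probe: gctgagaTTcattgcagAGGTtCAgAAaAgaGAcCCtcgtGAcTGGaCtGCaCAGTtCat

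The second pair, MAGED2 probe 2 and a MAGED4 probe, matched at 32 of 48 overlapping bases with 1 run of 15.

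MAGED2 probe 2: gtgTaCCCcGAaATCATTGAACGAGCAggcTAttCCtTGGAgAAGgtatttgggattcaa

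MAGED4 probe: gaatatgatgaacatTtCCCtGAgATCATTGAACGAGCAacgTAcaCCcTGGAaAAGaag

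Outside the family, the longest run that either MAGED2 probe shared with a probe of another named gene was 13 bases. Probes were compared with probes and not with whole transcripts, so binding to transcripts of other genes was not tested. The MAGED4 probe that shares the run of 15 lacked the flag on all 4 arrays.

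MAGED2 was far brighter in shpkp3-2 than in vec with both of its probes. Probe 1 read 59.6 and 49.7 intensity units in vec 1 and vec 2, and 1821 and 1905 in shpkp3-2 1 and shpkp3-2 2. In the same order, probe 2 read 44.1 and 51.4 against 1720 and 1941. Both arrays of shpkp3-2 lay far above both arrays of vec, and all 4 arrays were well above background for both probes, so that the vec level was itself measured. On the normalized log2 scale probe 1 was at -3.00 ± 0.09 in vec and at 2.31 ± 0.06 in shpkp3-2 (SD, n = 2 each), a difference of 5.31 or 39.6-fold. Probe 2 was at -3.19 ± 0.43 in vec and at 2.28 ± 0.14 in shpkp3-2, a difference of 5.47 or 44.4-fold. In RNA of a whole culture, a change in the number of cells that express a gene and a change in its RNA per cell cannot be told apart.

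The difference was about as large in each RNA collection. For probe 1 it was 5.33 in the first and 5.29 in the second collection, and for probe 2 it was 5.68 and 5.26. The wider spread of probe 2 came from vec 1, where it stood at -3.50 against -2.89 in vec 2. The fold depends on how the background is treated, because the vec signals are low: with normexp background correction, which adds a constant to all signals, the log2 differences were 4.27 for probe 1 and 4.31 for probe 2, that is 19.3-fold and 19.8-fold. Among the 30520 probes, probe 2 had the largest difference towards shpkp3-2 and probe 1 ranked 3 in that direction, which is the property MAGED2 was chosen for.

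**Figure D1:**
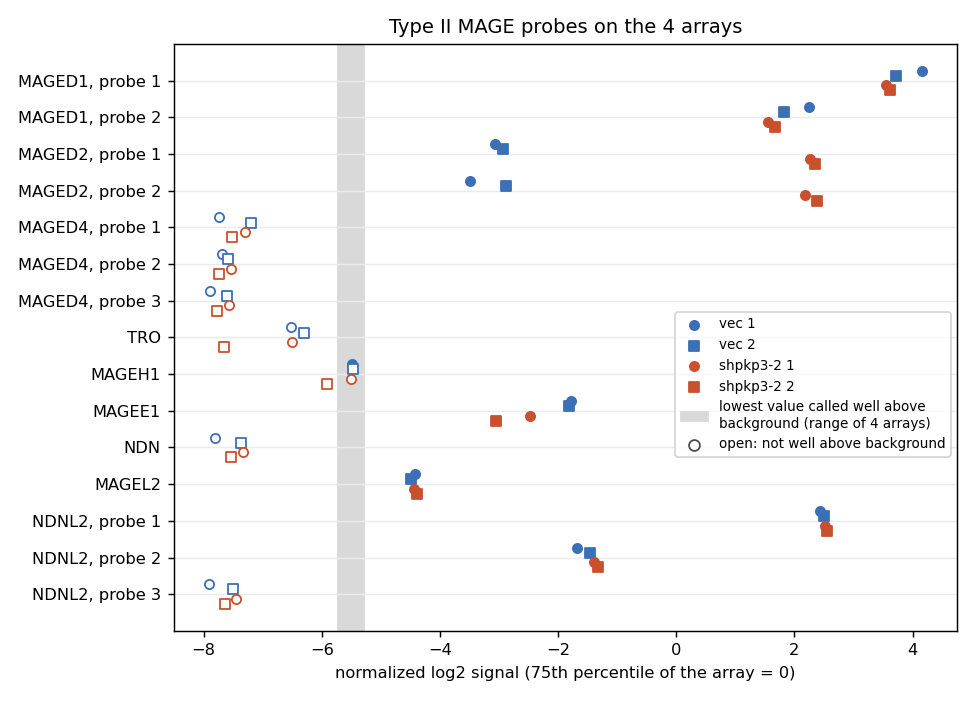
Normalized log2 signal (75th percentile of the array at 0) of the 15 type II MAGE probes on each of the 4 arrays, with vec in blue and shpkp3-2 in orange, filled where the probe was well above background and open where it was not. The grey band spans the lowest values called well above background on the 4 arrays, and the MAGED2 probes move from about -3 in vec to about 2.3 in shpkp3-2 while the other measured probes differ between the clones by less than 1 log2 unit.

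Of the other 8 genes, 4 were measured, with 6 probes, and none of the 6 probes was called by limma, while 1, that of MAGEE1, had an unadjusted p under 0.05. Over all 30520 probes 121 were called, which is 0.396% (0.249% higher and 0.147% lower in shpkp3-2), and 12.3% had an unadjusted p under 0.05. The 6 probes were higher in shpkp3-2 in 3 cases and lower in 3, with a median difference of -0.16 beside 0.05 over all probes tested. The arrays of the clones did not overlap for 5 of the 6, with 2 higher and 3 lower in shpkp3-2, as for 45.2% of all probes tested (27.2% higher and 18.0% lower). These 5 belong to only 3 genes, since MAGED1 and NDNL2 have 2 probes each among them.

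MAGED1, also called NRAGE, is a relative of MAGED2 and an adaptor of the p75 neurotrophin receptor. Its first probe read 8897 and 5051 units in vec against 4460 and 4598 in shpkp3-2. Its second probe read 2369 and 1345 against 1113 and 1193. In both probes vec 1 stood above the other 3 arrays, and the normalized levels of vec 2 lay only a little above those of shpkp3-2. The differences were -0.35 (SE 0.21, limma adjusted p = 0.549) and -0.42 (SE 0.21, adjusted p = 0.493), and neither was called. The 95% interval of the first ran from -0.87 to 0.16. Within the collections the first probe differed by -0.60 and by -0.11, and its difference was -0.14 without vec 1 and -0.57 without vec 2.

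MAGEE1, which carries 2 MAGE homology domains and is known as a component of the dystrophin-associated complex, was the member other than MAGED2 with the largest measured difference. It read 145 and 108 units in vec against 68.3 and 45.3 in shpkp3-2. On the normalized scale the vec arrays stood at -1.78 and -1.82 whereas those of shpkp3-2 stood at -2.47 and -3.05, so the clones did not overlap and the spread lay mostly within shpkp3-2. The difference of -0.96 (SE 0.24, 95% interval -1.54 to -0.37) left shpkp3-2 at 51.5% of vec, and it did not pass the adjustment (unadjusted p = 0.00707, limma adjusted p = 0.230). With normexp the difference was -0.49. It was lower in shpkp3-2 in both collections, by log2 differences of -0.69 and -1.22.

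MAGEL2, which joins the ligase TRIM27 and the WASH complex on endosomes, read 23.3 and 17.0 units in vec against 17.5 and 17.9 in shpkp3-2. The levels of the clones overlapped, and the difference was 0.04 (SE 0.17, 95% interval -0.38 to 0.46, limma adjusted p = 0.941), with a sign that turned to -0.05 after quantile normalization and to -0.03 after centring on the median. It was 0.16 with normexp, 0.08 without vec 1, 0.01 without vec 2 and 0.02 without shpkp3-2 2. NDNL2, the MAGEG1 protein that RefSeq lists as NSMCE3 and that is a subunit of the SMC5/6 genome maintenance complex, read 2704 and 2162 against 2158 and 2198 with its first probe. On the normalized scale it lay at 2.44 and 2.50 on the vec arrays, close to the 2.51 and 2.55 of shpkp3-2. The difference was 0.06 (SE 0.17, 95% interval -0.36 to 0.48, limma adjusted p = 0.908), and it was -0.01 after centring on the median, 0.00324 after quantile normalization, 0.02 with normexp, 0.03 without vec 1, 0.09 without vec 2 and 0.14 as the mean of both measured probes. The second NDNL2 probe, at 155 and 139 against 144 and 149 units, differed by 0.22 (SE 0.18, adjusted p = 0.661).

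**Figure D2:**
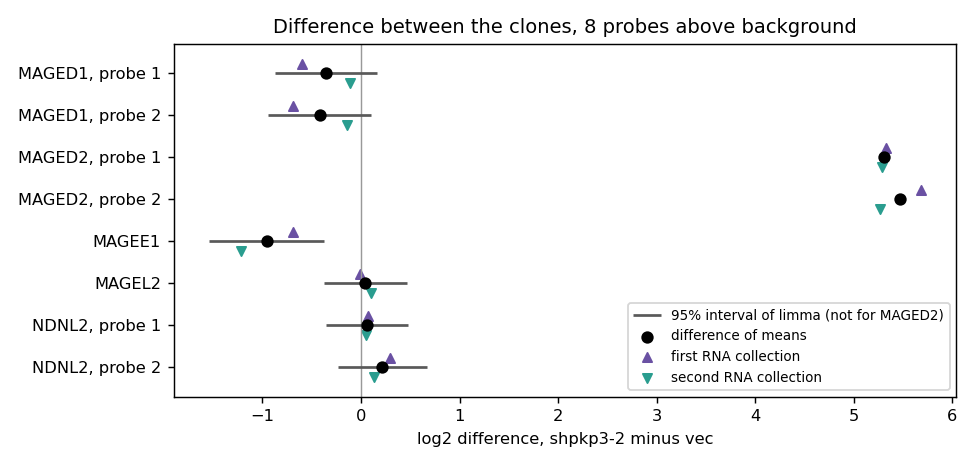
Log2 difference between shpkp3-2 and vec for the 8 type II MAGE probes measured in at least 1 clone, with 95% intervals of limma for the 6 probes tested and the values of both RNA collections marked. The MAGED2 probes stand above 5 and are shown as a description without an interval, whereas the other probes lie between -0.96 and 0.22.

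The remaining 4 genes had no measured level to compare. MAGEH1 was well above background on 1 array alone, vec 1, and read 11.0 and 8.58 units in vec against 8.31 and 6.21 in shpkp3-2. Necdin (NDN), a growth suppressor of postmitotic neurons, read between 2.02 and 2.35 units over the 4 arrays. TRO, which encodes the adhesion protein trophinin, read between 1.85 and 5.44, and the 3 probes of MAGED4 read between 1.70 and 2.60. None of these had the flag on any array, where the dimmest probes that carried it read 8.41 to 9.74 units. The third NDNL2 probe, at 1.88 to 2.15 units, likewise lacked the flag, unlike the other two probes of the gene. MAGED4 has a near-identical copy, MAGED4B, whose transcripts the probes may not separate. For these genes the arrays give no measured level in either clone and no fold is stated.

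Partners or targets of MAGE proteins were followed as a list of 35 genes, of which 32 were measured. None was called by limma and 4 had an unadjusted p under 0.05, against 0.396% and 12.3% of all probes. Differences ran from -0.83 to 1.11 with a median of 0.01, and 18 were higher and 14 lower in shpkp3-2. With the RNA collection as a block, which pairs the arrays as they were collected, 2 of the 32 were called, EID3 and MSX2, where the same fit called 2.76% of all probes.

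EID3, a paralog of the SMC5/6 subunit NSMCE4A, read 14.4 and 11.2 units in vec against 24.9 and 22.5 in shpkp3-2. Both shpkp3-2 arrays were above both vec arrays, and the difference was 1.11 (SE 0.17, limma adjusted p = 0.0970). With the collection as a block the SE was larger, at 0.28, and the adjusted p was 0.0181, on 32.0 degrees of freedom, residual and prior together, against 5.95 without the block. The signals are close to background, and with normexp the difference was 0.41. The other subunits of the complex on the list were nearer to 0, at 0.38 for NSMCE1, 0.45 for NSMCE2, 0.17 for SMC5, 0.01 for SMC6 and 0.05 for NSMCE4A. With single arrays left out, SMC5 ran from 0.06 without shpkp3-2 1 to 0.29 without shpkp3-2 2, SMC6 from -0.12 to 0.13 and NSMCE4A from -0.05 to 0.15 with the same arrays, so that SMC6 and NSMCE4A had no settled direction.

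MSX2, a homeodomain transcription factor that is bound by members of the family, read 789 and 441 units in vec against 1026 and 1001 in shpkp3-2. The difference was 0.99 (SE 0.21, limma adjusted p = 0.182), and with the block the SE was 0.28 and the adjusted p 0.0451. These MSX2 values are of the brighter of its 2 probes, and those of the other, also measured, are not given. NGFR, the p75 neurotrophin receptor to which MAGED1 and necdin bind, read 731 and 393 units in vec against 234 and 290 in shpkp3-2, a difference of -0.83 (SE 0.24, limma adjusted p = 0.286). LNX1, a RING ligase, read 54.9 and 19.4 against 35.9 and 48.9 and the clones overlapped, with a difference of 0.57 (SE 0.39, adjusted p = 0.588) that was 1.13 without vec 1, 0.02 without vec 2 and 0.34 without shpkp3-2 2. The 4 genes with an unadjusted p under 0.05 were EID3, MSX2, NGFR and TROAP, the last of which encodes the trophinin partner tastin and differed by -0.57 (limma adjusted p = 0.337), named here after its value was seen. The sodium chloride cotransporters that MAGED2 sustains in the kidney were not measured in these cells, since SLC12A1 had the flag on no array and SLC12A3 on 1.

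**Figure D3:**
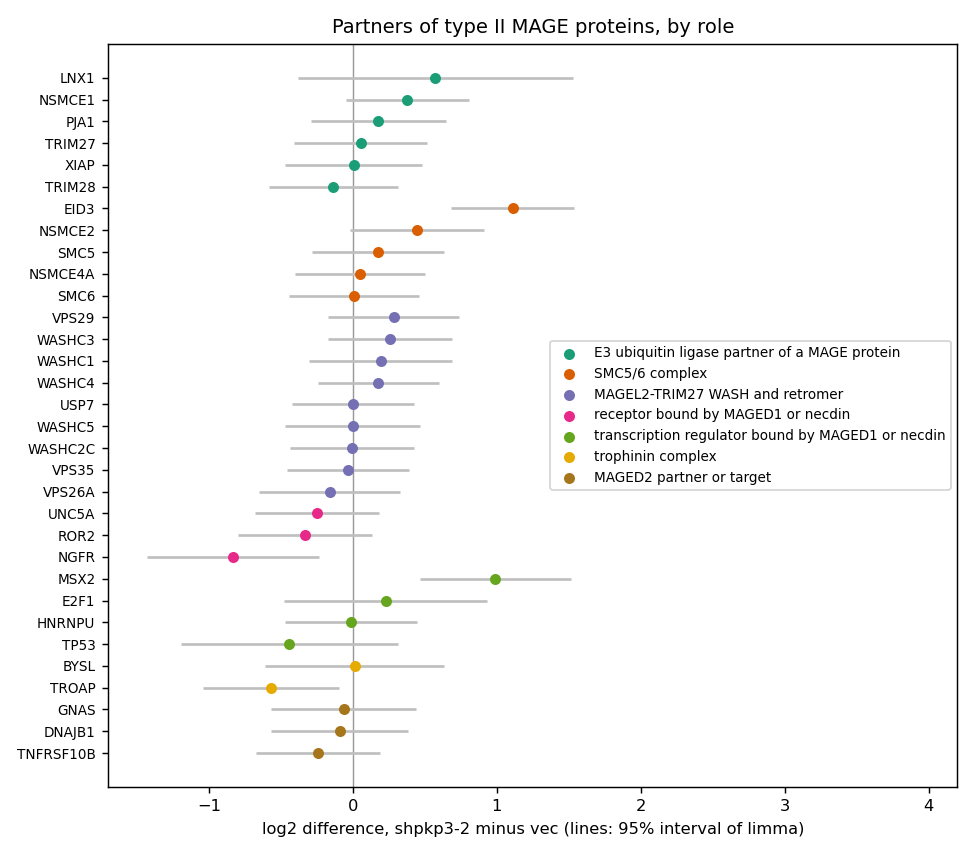
Log2 difference between shpkp3-2 and vec for the 32 measured partners or targets of MAGE proteins, coloured by role, with 95% intervals of limma. EID3 and MSX2 stand highest at 1.11 and 0.99 and NGFR lowest at -0.83, and no partner was called after adjustment without the collection block.

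MAGED2 lies on the X chromosome among genes that could be compared with it by position, taken as the 10 protein-coding genes on each side in the RefSeq gene order of GRCh38.p14. Of these 20 genes 13 were measured. None was called by limma and none had an unadjusted p under 0.05, against 0.396% and 12.3% of all probes tested. The differences ran from -0.53 to 0.55 with a median of 0.05, beside 0.05 over all probes tested. The lowest, of PAGE5, which lacked the flag on shpkp3-2 1, was -0.16 without vec 1 and -0.90 without vec 2. GNL3L, the closest measured gene, encodes a nucleolar GTPase and read 3571 and 3299 units in vec against 3263 and 2866 in shpkp3-2, a difference of 0.05 (limma adjusted p = 0.945) that was 0.27 in the first and -0.18 in the second collection. Between it and MAGED2 lies ITIH6, and on the other side of MAGED2 lies TRO, and neither had the flag on any array.

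Of the neighbours well above background on all arrays, TSR2, a chaperone of ribosomal protein eS26, had the largest absolute difference at 0.55 (SE 0.43, limma adjusted p = 0.628), with vec 1 at 350 units against 669 in vec 2. The TSR2 difference was -0.11 without vec 1 and 1.22 without vec 2. ALAS2, the erythroid enzyme that opens heme synthesis, differed by 0.51 (adjusted p = 0.469), and by 0.29 without shpkp3-2 1 to 0.73 without shpkp3-2 2. The ubiquitin ligase HUWE1 differed by -0.35 (adjusted p = 0.593) and the endonuclease APEX2 by 0.27 (adjusted p = 0.644). HUWE1 stood at -0.16 without vec 1, -0.53 without vec 2, -0.13 without shpkp3-2 1 and -0.56 without shpkp3-2 2. APEX2 stood at 0.06 without vec 1, 0.48 without vec 2 and 0.17 without shpkp3-2 1. MAGED2 differed by 5.31 on the same arrays.

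The type I genes were listed to set the rest of the MAGE family beside the members. Of 26 such genes 23 had a probe, 9 were measured, and 12 had the flag on no array. None of the 9 was called by limma and none had an unadjusted p under 0.05, against 0.396% and 12.3% of all probes tested. Of the 9, 7 were higher and 2 lower, with a median difference of 0.05 beside 0.05 over all probes tested. MAGEA3 read 18591 and 17363 units in vec against 20808 and 18879 in shpkp3-2, a difference of 0.35 (SE 0.19, limma adjusted p = 0.521). MAGEA1 differed by 0.53 (SE 0.48, adjusted p = 0.679), MAGEA9B by 0.28 (adjusted p = 0.658) and MAGEA4 by 0.20 (adjusted p = 0.766). With single arrays left out they ran from -0.21 without vec 1 to 1.28 without vec 2 for MAGEA1, from 0.06 to 0.51 for MAGEA9B, from -0.11 to 0.51 for MAGEA4 and from 0.21 to 0.50 for MAGEA3, with the same arrays left out. Without shpkp3-2 1 and shpkp3-2 2 in turn, MAGEA9B stood at 0.10 and 0.47 and MAGEA1 at 0.33 and 0.74. Several MAGEA genes are near-identical copies, so a probe named for one may also bind the transcript of another. MAGEA9 and MAGEB1 were well above background on 1 array each, shpkp3-2 2, and were not tested. Of the type II genes outside the 9, MAGEF1, which joins the ligase NSMCE1, differed by -0.04 (SE 0.17, adjusted p = 0.939), a value that was 0.02 without vec 1 and -0.11 without vec 2, and MAGEE2 had the flag on no array. MAGED4B was read by 1 of the 3 MAGED4 probes already described.

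The genes whose 4-array pattern lay closest to that of MAGED2 were sought among 14073 genes well above background on all arrays, by the Euclidean distance between log2 levels centred on the vec mean. Since MAGED2 was chosen for its difference, such genes are also high in shpkp3-2 by construction, and they are listed without a test. The second MAGED2 probe, for scale, lay at a distance of 0.42 from the first. The nearest gene was PRR15L at 0.92, with 35.5 and 33.0 units in vec against 804 and 708 in shpkp3-2 and a difference of 4.67. The gene ranked 2 is not reported here. CA9, the hypoxia-induced carbonic anhydrase, ranked 3 at 2.61 with a difference of 3.53. GRHL3, a grainyhead transcription factor of surface epithelia, lay at 2.72 with a difference of 3.40, and the tubulin gene TUBAL3 at 3.72 with a difference of 2.71. No member of the MAGE family was among the 5 nearest. That outcome was fixed by the smaller differences of the other measured MAGE genes, since the distance depends mainly on the size of the difference.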

How the data were processed

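Total RNA of 2 vec and 2 shpkp3-2 samples of HCT116 was labelled with Cy3 and hybridised to Agilent arrays of 60-base probes. The labels name 5 µg/ml puromycin for keeping the clones, while the study's methods name blasticidin. The authors deposited scanner output of Agilent Feature Extraction (version 9.1 in the submitters' processing notes): the processed intensity of each spot, background-subtracted and detrended, and flags scored 0 or 1 for detection, which the deposited files hold as other columns. The study's methods call this processed signal normalized. Its 75th percentile still differed between the deposited arrays, from 8.55 to 8.96 on the log2 scale, so it was levelled here. Each file holds 1 array. The deposited files give no depth, and the number of arrays limits the precision.

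Control and outlier spots were left out (51538 spots in all other than controls), spots of a probe were averaged, and log2 intensity minus the 75th percentile of the array was used. Probes with the well-above-background flag on each array of 1 clone or both were fitted with limma 3.58.1 (lmFit and eBayes, R 4.3.3), with Benjamini-Hochberg adjustment over all 30520. The script was tested on simulated data. Summaries and plots used Python 3.11.15 with numpy 2.4.6, pandas 2.3.3, scipy 1.17.1 and matplotlib 3.10.9. For genes with several probes outside the family the brightest was used. Probe names were matched to RefSeq by accession (28590 probes), symbol (3001) or older symbol (1176), and 17471 were not matched. The array was designed on hg18, and its coordinates were not used here.

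The arrays of the 2 collections were paired by the series' design text. Deviations of same-numbered arrays from their group means correlated at r = -0.20 over 30520 probes. The fit without the block was taken as the main one, since the study's methods state no pairing. Alternatives changed the background correction, the normalization, the detection filter, the pairing, the prior of the test, the probe used and the arrays left out.

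The text names all 9 members, PKP3, from each list every called gene or otherwise the 4 with the largest absolute difference among those well above background on all 4 arrays, and the 5 genes nearest to MAGED2 in pattern. Named outside this rule, after their values were seen, were TROAP, the SMC5/6 genes NSMCE1, NSMCE2, SMC5, SMC6 and NSMCE4A, GNL3L as the closest measured neighbour, PAGE5 as the lowest, and CLDN4. The other markers of cell type were also named. SLC12A1, SLC12A3, ITIH6, MAGEA9, MAGEB1, MAGEE2 and MAGED4B, none of them measured, were named outside the rule as well. The members and lists were chosen with earlier results of these data known. One gene is not reported here.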

Additional observations from a re-analysis of the deposited data

How the results depend on the processing

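The MAGED2 difference of 5.31 was 4.27 with normexp background correction and 5.39 as the mean of both probes, and 5.25 to 5.37 when each array was left out in turn. No member other than MAGED2 and no neighbour was called under any alternative. With the collection as a replicate block, 2 partners were called in place of 0, and the pairing changed no other call among members, neighbours and other MAGE genes. With single arrays left out, there were 0 to 2 called genes among the type I and other type II MAGE genes, the 2 being MAGEA9 and MAGEB1 without shpkp3-2 1, where the single remaining array of that clone, assumed to vary like the others, admitted them to the test. The direction turned for MAGEL2 (-0.052 with quantile normalization and -0.028 with median centring, against 0.04) and for NDNL2 (-0.0092 with median centring, against 0.06). The MAGEE1 difference ran from -1.24 without shpkp3-2 1 to -0.49 with normexp, with limma adjusted p from 0.0575 (the replicate block) to 0.795.

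Over all probes, 76 were called higher and 45 lower. The counts were 503 and 338 with the replicate block, 64 and 40 with the crossed pairing (chosen after seeing the data, with 0 partners called), 109 and 64 with normexp, 42 and 32 with quantile normalization, 82 and 59 with median centring and 114 and 59 with a trended robust prior. They were 10 and 8 without a filter, 25 and 21 with detection required on all arrays, and 1 and 1 with the weaker detection flag. They were 171 and 142 without vec 1, 108 and 154 without vec 2, 243 and 55 without shpkp3-2 1, and 224 and 80 without shpkp3-2 2. With 2 arrays of 1 clone per group, differences of the size seen for MAGED1, MAGEL2 or NDNL2 lie within the 95% intervals around 0, and levels near background, as for MAGEH1, MAGEL2 and EID3, limit any fold.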
